A study of Mus musculus with 7 samples.

Results

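The collagen genes of mouse tumors were described across 7 bulk RNA libraries. Members were all rows of the deposited expression table named Col, a number, a and a number, which gave 44 of 21892 gene symbols. No measured value entered this naming rule, although the members were chosen with earlier results of these data known. The members were divided by the kind of assembly their protein forms: 11 fibrillar chains, 6 chains of the type IV network of basement membranes, 3 collagens of the basement membrane zone (types VII, XV and XVIII), 3 chains of the hexagonal network collagens VIII and X, 6 chains of the beaded filament collagen VI, 9 fibril-associated chains, 4 transmembrane chains and 2 others. The tumors carried an Egfr exon 19 deletion, grew subcutaneously after passage in C57BL/6 mice, and are labelled as lung tumor. Each group is 1 library: vehicle at day 3; gefitinib, an inhibitor of the EGFR kinase, for 3 or for 14 days; and, after 14 days of gefitinib, 7 days of vehicle, of DC101 (an antibody against the VEGF receptor VEGFR2), of 4H2 (the antibody against PD-1, the target named in the series title) or of both antibodies, called the combination here. For the vehicle groups the treatment label reads as no treatment, and the titles were followed. The sources used here do not give the number of animals behind a library. Because each group is a single library, no error or test can be given, and every difference below is between 2 libraries.

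Collagens are proteins whose chains wind by 3 into a helix made of glycine-led repeats. Fibrillar collagens, led by type I and type III and made mostly by fibroblasts, are secreted as procollagen, trimmed and crosslinked into the fibers of scar and tumor stroma. Type IV collagen instead forms a flexible sheet in the basement membrane under epithelium and around vessels, muscle fibers and fat cells. It is made in part by those cells themselves. Fibril-associated collagens coat fibrils, type VI lies between fibrils and cells, and transmembrane collagens span the cell surface.

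The 4H2 and combination libraries differed from the other 5 in their makeup. Values of 7 libraries are listed throughout in the order day 3 vehicle, day 3 gefitinib, day 14 gefitinib, day 21 vehicle, DC101, 4H2 and combination, in TPM, a length-normalized abundance that sums to 1000000 in a library. Egfr was at 629.8, 499.3, 438.7, 446.7, 537.8, 19.4 and 48.3 TPM, and the lung lineage factor gene Nkx2-1 was at 391.6, 203.5, 122.3, 238.3, 201, 1.1 and 14 TPM. Markers of the labelled tissue were thus low in the last 2 libraries, and 10 epithelial markers summed to 0.358, 0.115, 0.184, 0.737, 0.474, 0.00472 and 0.0373% of all TPM. Skeletal muscle markers (14 genes) summed to 0.0327, 0.248, 0.412, 0.342, 1.94, 9.15 and 9.06%, while 12 fibroblast markers that are not collagens summed to 0.0284, 0.188, 0.188, 0.097, 0.0855, 0.107 and 0.126% and 9 endothelial markers to 0.0199, 0.0564, 0.0472, 0.0454, 0.0339, 0.0298 and 0.0277%. In bulk tissue, fewer cells of a type and less RNA per cell cannot be told apart. Of other cells that make collagen, 10 pericyte and smooth muscle markers summed to 0.0144, 0.0423, 0.0349, 0.0538, 0.0254, 0.0223 and 0.0223% and 8 adipocyte markers to 0.00443, 0.0257, 0.0553, 0.0119, 0.0323, 0.0715 and 0.0746%, while 7 macrophage markers summed to 0.104, 0.872, 0.964, 0.435, 0.396, 0.694 and 0.55%. Markers of Schwann cells were between 0.00103% and 0.0128%, and of basal keratinocytes between 0.00005% and 0.00609%, with Dsg3 listed at 0 in 4 libraries. Markers of cartilage and tendon were between 0.00248% and 0.0315%. The highest of these shares, in the day 3 vehicle library, was mostly Sox9, at 293.4 of 314.5 TPM. The cartilage gene Acan was listed at 0 in the 4H2 library and was highest at day 3 of gefitinib, at 6.8 TPM. Comp was also highest there, at 14.2 TPM, whereas Scx was highest in the day 21 vehicle library, at 26 TPM. These genes were picked after their values were seen. The part of these shares in the collagen differences was not tested.

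**Figure D1:**
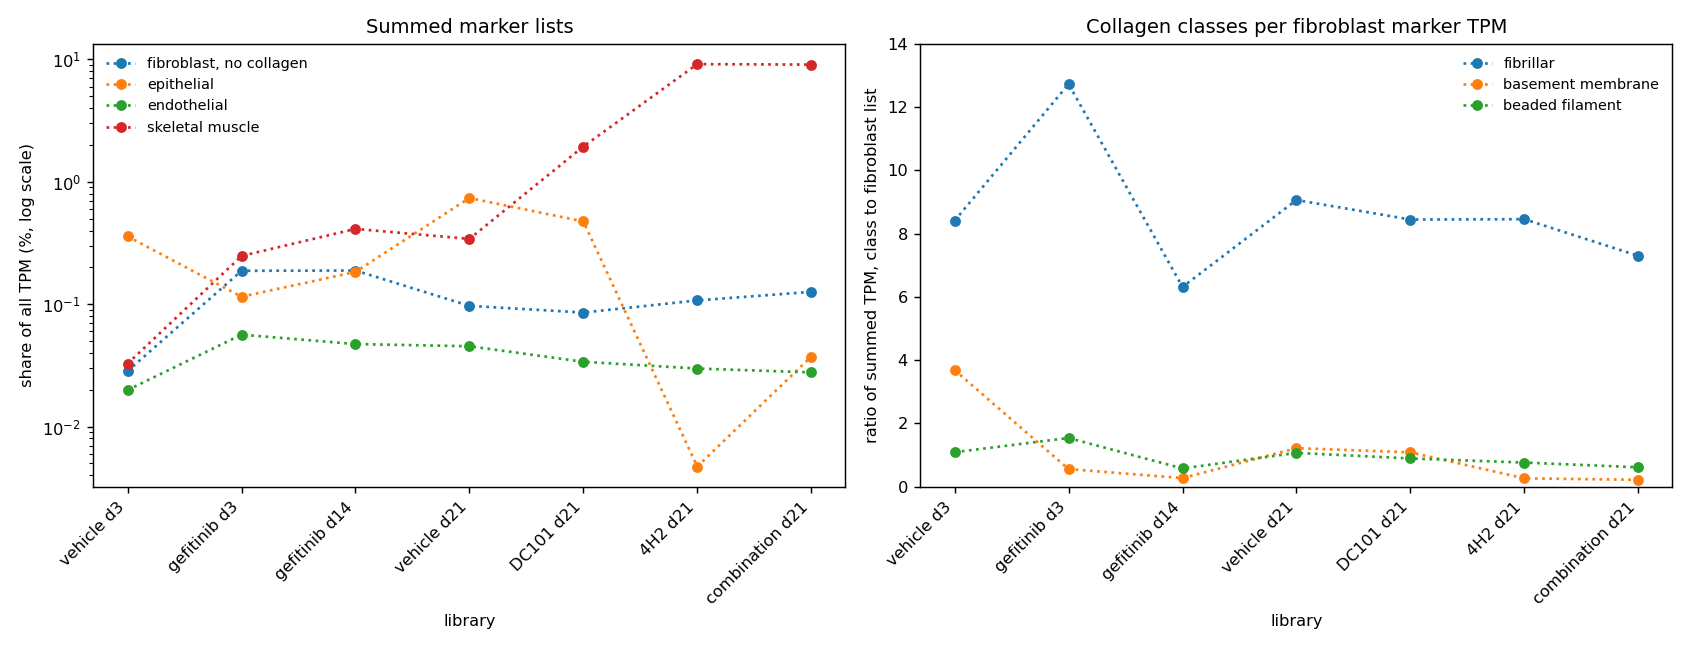
Left, summed TPM of marker genes of 4 cell types as a share of all TPM (log axis) in each of the 7 libraries; right, summed TPM of 3 collagen classes divided by the summed TPM of the 12 fibroblast markers of the same library. Points are single libraries and the dotted lines only join them. Muscle markers reached 9.15% with 4H2, and the ratio of fibrillar collagen was highest, at 12.7, at day 3 of gefitinib.

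The summed level of all 44 collagen genes was lowest in the day 3 vehicle library and highest at day 3 of gefitinib. The sums were 4677.5, 29281.4, 14210.1, 11857.7, 9526.6, 10597.3 and 10591.1 TPM, or 0.468, 2.93, 1.42, 1.19, 0.953, 1.06 and 1.06% of all TPM. The make-up of the collagen pool differed too. Fibrillar chains held 51.2, 81.5, 83.8, 74.1, 75.8, 85.7 and 86.9% of collagen TPM, and type IV chains 22.4, 3.56, 3.59, 9.95, 9.74, 2.66 and 2.58%. Type IV thus took 22.4% of collagen RNA in the day 3 vehicle library, 9.95% and 9.74% in the day 21 vehicle and DC101 libraries and at most 3.59% elsewhere. Col1a1 had rank 3 among all genes of the library at day 3 of gefitinib.

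**Figure D2:**
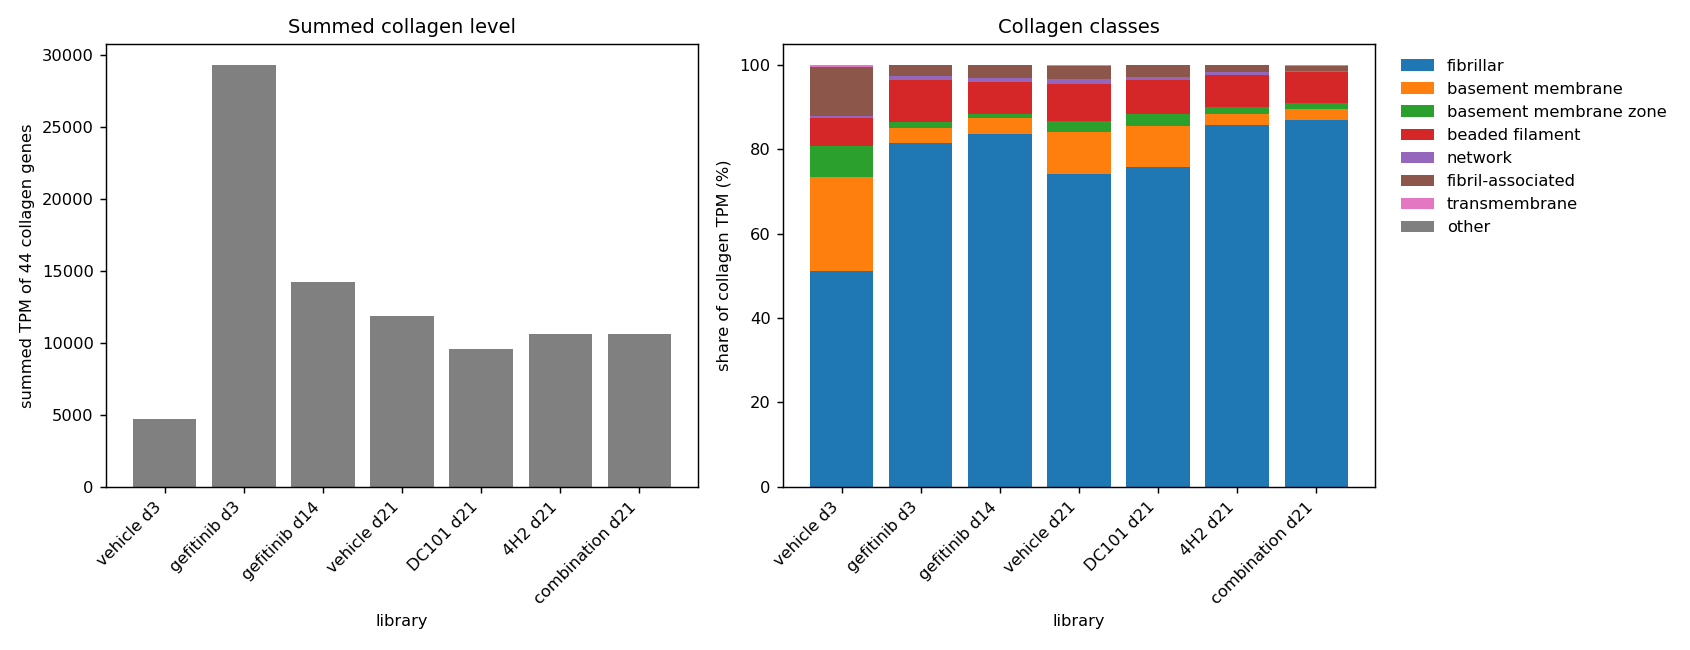
Left, summed TPM of the 44 collagen genes in each library, from 4677.5 in the day 3 vehicle library to 29281.4 at day 3 of gefitinib; right, the share of that sum held by each collagen class, in percent. The fibrillar share is smallest in the day 3 vehicle library, at 51.2%.

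At day 3, the gefitinib library against the vehicle library, 9 of 10 fibrillar genes, the 3 main type VI genes and both type VIII genes were higher, the main type IV genes lay within 2-fold, and 4 genes were lower. Differences are log2 ratios of TPM plus 1 for the 33 collagen genes with a mean of at least 1 TPM, and a gene was called higher or lower at a difference of at least 2-fold on that scale. Of these 33 genes, 22 were higher, against 20.8% of the 13997 genes of the whole table that met the same minimum, and 4 were lower, against 14.4%. Among the 22, Col9a2 met the minimum only through the day 3 gefitinib library; without it 21 of 32 were higher. The median over the 33 was 1.89, and over all genes -0.09. Of the 10 fibrillar genes 9 were higher and 1 lower, with a median of 2.91. The 12 fibroblast markers were all higher in the same pair, with a median of 2.74, and 8 of 9 endothelial and 14 of 14 muscle markers were higher as well, while 9 of 10 epithelial markers were lower. Their part in the collagen difference was not tested.

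Type I collagen, the main fiber of skin, bone and scar, was the most abundant. Col1a1 (chromosome 11, 94936224 to 94953042, GRCm38.p6), which encodes its alpha 1 chain, was at 943.5, 10261.8, 5500.7, 3873.5, 3123.9, 4306.4 and 4152.8 TPM. Col1a2 (chromosome 6, 4505618 to 4541543), for the alpha 2 chain, was at 527.3, 6547.1, 3271.9, 2361.5, 1875.6, 2539.5 and 2364.6 TPM. Both were lowest in the day 3 vehicle library and highest at day 3 of gefitinib, where they were 10.9-fold and 12.4-fold the vehicle TPM. Col3a1 (chromosome 1, 45311538 to 45349706), whose type III fibrils are typical of soft, distensible tissue, was at 706.2, 5524.5, 2372.7, 1832.9, 1717.7, 1708.6 and 2218.4 TPM, a 7.82-fold ratio at day 3.

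Type V collagen, which starts and limits the width of type I fibrils, had the same order of libraries at its top and bottom. Col5a1 (chromosome 2, 27886381 to 28039510) was at 104.8, 849.6, 365.6, 394.8, 272.1, 249 and 222.6 TPM. Col5a2 (chromosome 1, 45374331 to 45503282), which neighbours Col3a1 on its chromosome, was at 62, 453, 240.6, 198, 128.4, 155.8 and 142.6 TPM, and Col5a3 (chromosome 9, 20770050 to 20815117) was at 34.5, 178.6, 119.8, 106.7, 83.4, 95.7 and 82.1 TPM. The 3 genes were 8.11-fold, 7.31-fold and 5.18-fold the vehicle TPM at day 3 of gefitinib, in the order named.

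The minor fibrillar chains were far less abundant. Col11a1, a chain of cartilage fibrils that is also made by activated fibroblasts of tumors, was at 0.3, 23.9, 8.9, 7.3, 3.8, 9.4 and 4.6 TPM, a log2 difference of 4.26 at day 3. Col24a1 was at 1.9, 13.1, 4.1, 5.4, 4.7, 5.2 and 3.6 TPM. Col27a1 was at 6.1, 16.2, 10.9, 6.9, 7.3, 12.4 and 12.1 TPM, and differed by 1.28 on the log2 scale at day 3. Col11a2, a partner of Col11a1 in type XI, was the 1 fibrillar gene called lower: it was at 6.7, 2.7, 7, 5.1, 4, 3.2 and 2.9 TPM, and the call was lost under median-of-ratios rescaling, where the difference was -0.96. Col2a1, the main fibrillar chain of cartilage, was between 0 and 0.1 TPM in the 7 libraries.

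**Figure D3:**
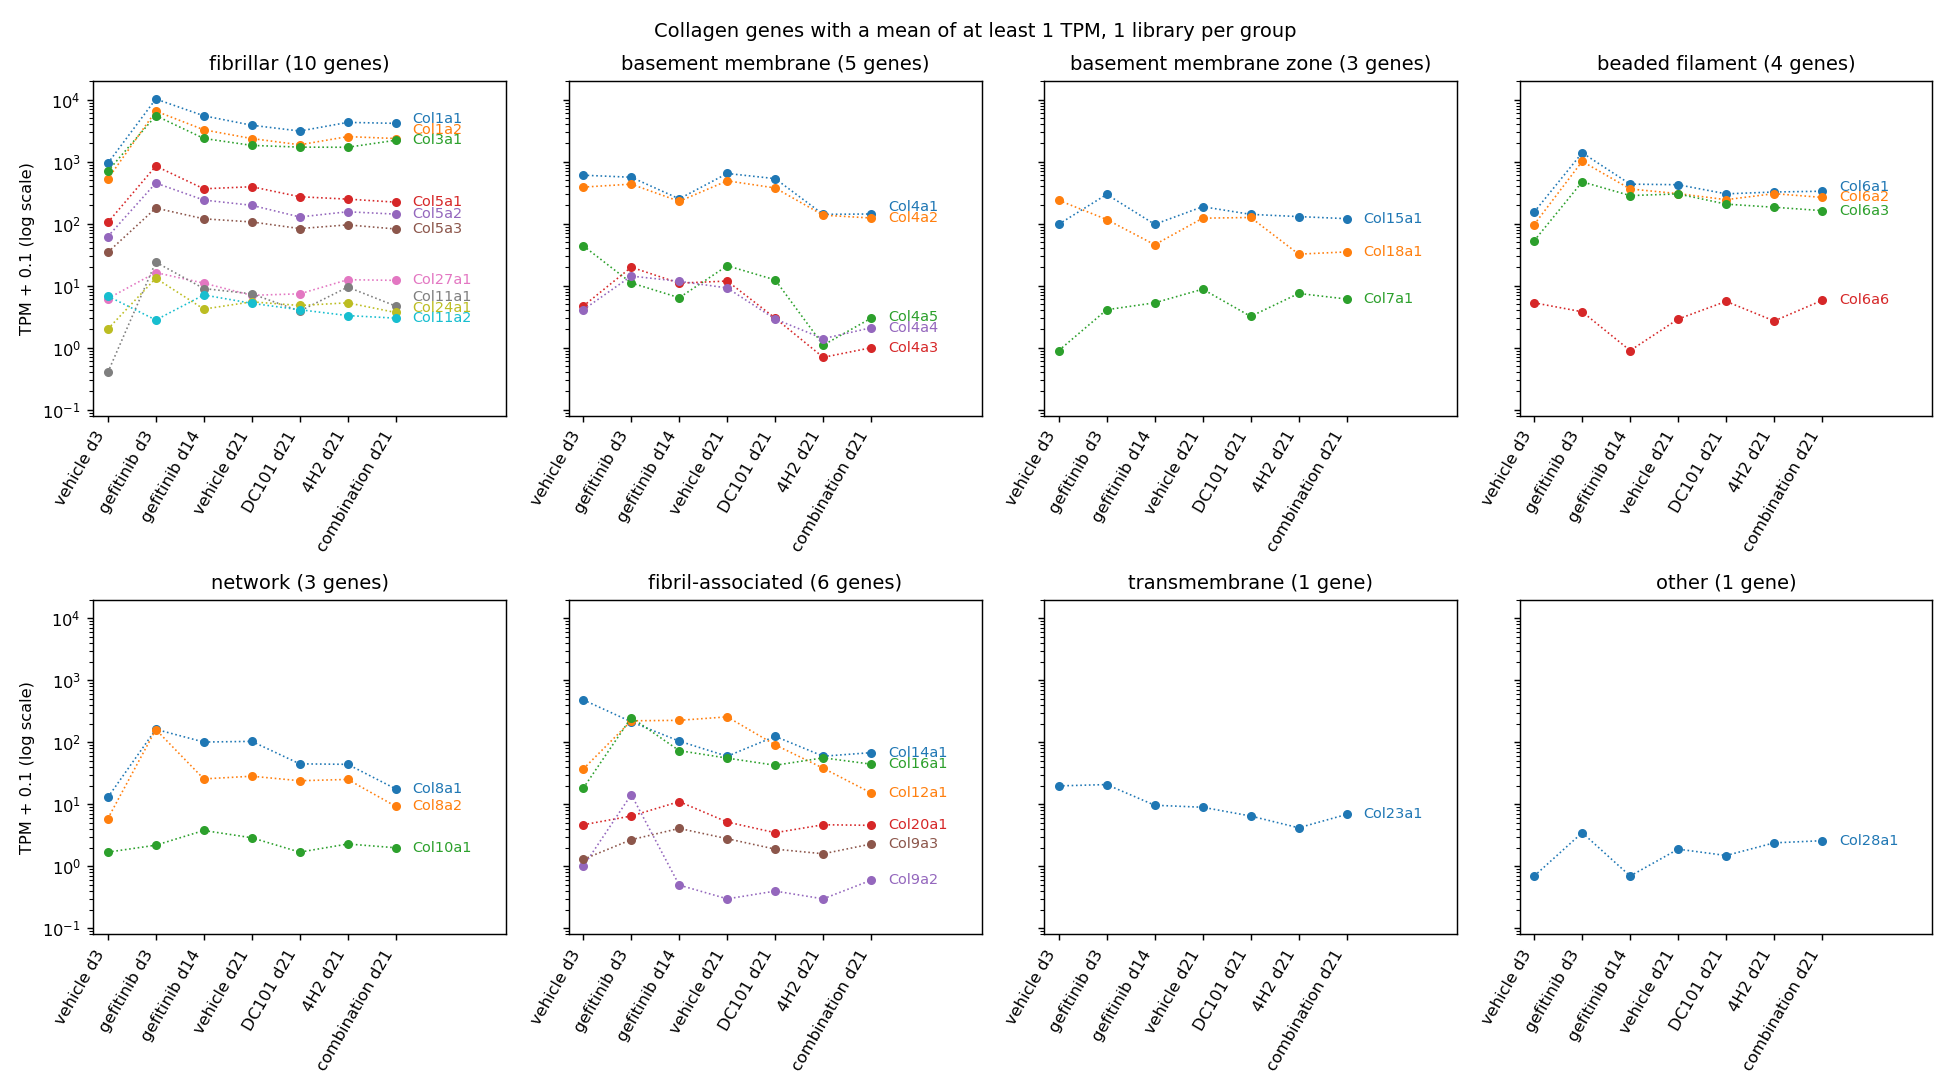
TPM plus 0.1 (log axis) of the 33 compared collagen genes in the 7 libraries, 1 panel per class; points are single libraries and dotted lines join the values of a gene without marking a time course. Most fibrillar, type VI and type VIII genes peak at day 3 of gefitinib, as Col1a1 does at 10261.8 TPM, whereas the type IV genes Col4a1, Col4a2 and Col4a5 are low in the 4H2 and combination libraries.

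Type VI collagen, the beaded filament that links cells to the fibers around them, was higher in its 3 main chains at day 3 of gefitinib. Col6a1 (chromosome 10, 76708792 to 76726044) was at 154.3, 1393.2, 434.9, 425.1, 303, 324.4 and 334.1 TPM. Col6a2 (chromosome 10, 76595756 to 76623630), its neighbour, was at 96.9, 1013.3, 363.1, 305.5, 244.1, 305.2 and 265.8 TPM, and Col6a3 (chromosome 1, 90766860 to 90844001) was at 53.1, 473.7, 284.1, 302.2, 206.9, 184.1 and 162.6 TPM. All 3 were lowest in the day 3 vehicle library and between 8.92-fold and 10.5-fold of it at day 3 of gefitinib. The other beaded filament genes, Col6a4, Col6a5 and Col6a6, lie together on chromosome 9 and stayed between 0.1 and 5.7 TPM. Col6a6 was at 5.2, 3.7, 0.8, 2.8, 5.5, 2.6 and 5.7 TPM.

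Type VIII collagen, a short-chain network collagen of vessel walls and the cornea, belongs to the class whose summed TPM had the highest ratio of gefitinib to vehicle at day 3, 16.1. Col8a1 (chromosome 16, 57624256 to 57754737) was at 12.9, 162.5, 101.3, 103.9, 45, 44.2 and 17.7 TPM. Col8a2 (chromosome 4, 126286794 to 126314330) was at 5.8, 161.4, 25.7, 28.4, 24, 25.2 and 9.2 TPM. At day 3 of gefitinib they were 12.6-fold and 27.8-fold the vehicle TPM, and Col8a2 had the largest log2 difference of the 33 genes, 4.58. Col10a1, the network collagen of growing cartilage, was between 1.6 and 3.7 TPM.

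Upstream sequence is shown for 2 of the genes with a high level at day 3 of gefitinib. The 250 bases before the annotated start are given for Col3a1 and Col8a1, which were 7.82-fold and 12.6-fold higher at day 3 and whose windows overlap no annotated exon. Sequences come from RefSeq on GRCm38.p6, 5′ to 3′ on the strand of the gene, with matches on either strand to 3 short strings in capitals: the TATA box string TATAAA, the CCAAT box, and the GC box string GGGCGG; a match was counted also where it overlapped a match to another string. The Col3a1 window is chr1:45311288-45311537 on the plus strand, and the Col8a1 window is chr16:57754738-57754987 on the minus strand.
Col3a1: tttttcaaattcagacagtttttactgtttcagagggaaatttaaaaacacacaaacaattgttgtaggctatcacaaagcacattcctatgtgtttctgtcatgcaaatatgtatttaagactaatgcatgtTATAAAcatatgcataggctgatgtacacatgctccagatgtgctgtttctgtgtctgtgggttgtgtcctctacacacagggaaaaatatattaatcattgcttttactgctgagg
Col8a1: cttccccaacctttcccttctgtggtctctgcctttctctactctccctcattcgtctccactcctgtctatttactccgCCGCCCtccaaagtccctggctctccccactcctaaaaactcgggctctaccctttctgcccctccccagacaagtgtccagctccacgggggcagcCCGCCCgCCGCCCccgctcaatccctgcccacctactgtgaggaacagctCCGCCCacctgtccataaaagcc
Col3a1 held 1 TATAAA, 117 to 112 bases before the start, and neither of the other strings. Col8a1 held 4 matches to GGGCGG, all as CCGCCC, and neither of the other strings. Of the 44 genes 35 had an entry, with 38 starts. GGGCGG was found before 57.9% of these starts and 32.7% of all 32851 starts in the table, CCAAT before 34.2% and 33.9%, and TATAAA before 13.2% and 12.4%. A match is a string of letters and not a known site of binding.

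The fibril-associated genes differed among themselves. Col12a1 (chromosome 9, 79598987 to 79721141), whose product bridges type I fibrils in tissue under load, was at 37.2, 223, 227, 258.2, 91.1, 38.3 and 15.2 TPM. Col14a1 (chromosome 15, 55307644 to 55520803), a close relative that also binds fibrils, was at 485.4, 214.9, 104.7, 59.7, 125.2, 59.8 and 68.3 TPM. Col12a1 was thus 5.99-fold higher and Col14a1 2.26-fold lower at day 3 of gefitinib, and the ratio of Col14a1 to Col12a1 was 13, 0.964, 0.461, 0.231, 1.37, 1.56 and 4.49 in the 7 libraries. Col16a1, found at the surface of fibrils and microfibrils, was also lowest in the day 3 vehicle library and highest at day 3 of gefitinib, at 18.2, 252, 73.6, 55.7, 42.7, 56.3 and 44.5 TPM. Col20a1 was at 4.6, 6.4, 11, 5.1, 3.4, 4.6 and 4.5 TPM. Col9a2, a chain of the cartilage collagen IX, was at 0.9, 14.3, 0.4, 0.2, 0.3, 0.2 and 0.5 TPM, and met the minimum mean through the day 3 gefitinib library alone. Its partner Col9a3 was between 1.2 and 4 TPM.

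Type IV collagen differed from the fibrillar genes in some pairs of libraries and not in others. Its summed TPM at day 3 of gefitinib was 0.994 of that with vehicle, where the fibrillar ratio was 9.97, but at day 14 against day 3 of gefitinib the ratios were alike, at 0.490 and 0.499. Col4a1 (chromosome 8, 11198423 to 11312889) and Col4a2 (chromosome 8, 11312805 to 11449287) lie head to head and encode the chains found in basement membranes throughout the body. Col4a1 was at 605.7, 561.4, 251.8, 646, 533, 141.4 and 143.4 TPM. Col4a2 was at 389.3, 434.5, 229.6, 491.6, 376.9, 137.2 and 123.5 TPM. Between vehicle and gefitinib at day 3 they differed by -0.11 and 0.16 on the log2 scale, and the small Col4a1 difference became 0.01 under median-of-ratios rescaling. Both were low at day 14 of gefitinib and lowest in the 4H2 and combination libraries. The ratio of Col4a1 to Col1a1 was 0.642, 0.0547, 0.0458, 0.167, 0.171, 0.0328 and 0.0345, highest in the day 3 vehicle library.

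The alpha 3, 4 and 5 chains of type IV form the special network of the lung alveolus and the kidney glomerulus. Col4a3 (chromosome 1, 82586921 to 82722059), which encodes the target of Goodpasture antibodies, was at 4.6, 19.8, 10.9, 11.8, 2.9, 0.6 and 0.9 TPM. Col4a4 (chromosome 1, 82448419 to 82587034), its head-to-head neighbour, was at 4, 14.2, 11.7, 9.1, 2.8, 1.3 and 2 TPM. Both were higher at day 3 of gefitinib, 4.30-fold and 3.55-fold, and both were lower with each antibody than in any library before day 21. Col4a5 (chromosome X, 141475370 to 141689236), whose chain also pairs outside the alveolus, had a different pattern, at 43.9, 11, 6.3, 20.9, 12.3, 1 and 2.9 TPM: it was highest in the day 3 vehicle library and 3.99-fold lower at day 3 of gefitinib. Col4a6 stayed between 0 and 0.4 TPM. Alveolar type 1 markers, which mark the flat gas-exchange cells, summed to 0.0508, 0.174, 0.171, 0.117, 0.0792, 0.0118 and 0.0163% of all TPM. Clic5, picked after its values were seen, made up 50.9 of 118.4 TPM with 4H2 and 49.7 of 163.3 TPM with the combination. It was the 1 of these 6 markers higher than in day 21 vehicle in either library, where 4 and 3 were lower. The part of these markers in the Col4a3 and Col4a4 levels was not tested.

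Among the collagens of the basement membrane zone, types XV and XVIII, which carry heparan or chondroitin sulfate chains and release endostatin-like fragments, differed in opposite directions at day 3. Col15a1 (chromosome 4, 47207655 to 47313167) was at 98.1, 297, 97.7, 188, 141.4, 130.2 and 120.5 TPM. Col18a1 (chromosome 10, 77052178 to 77166530) was at 238.3, 116.8, 45.7, 122.6, 126, 32.2 and 35 TPM. Col15a1 was 3.03-fold higher and Col18a1 2.04-fold lower at day 3 of gefitinib, although the Col18a1 difference of -1.02 was -0.90 after median-of-ratios rescaling and no longer called. The ratio of Col18a1 to Col15a1 was 2.43 in the day 3 vehicle library and between 0.247 and 0.891 in the other 6. Col7a1, the anchoring fibril of skin, was at 0.8, 4, 5.2, 8.7, 3.1, 7.4 and 6 TPM.

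Transmembrane collagens were scarce. Col23a1 was the 1 transmembrane gene that met the minimum, at 19.8, 20.8, 9.6, 8.9, 6.4, 4.1 and 6.8 TPM, highest in both day 3 libraries. Col13a1, found at cell adhesion sites and the neuromuscular junction, was between 0.4 and 1.9 TPM, Col25a1, needed by motor nerves in muscle, between 0 and 0.3, and Col17a1, the hemidesmosome collagen of basal keratinocytes, between 0 and 1.7. In all, 11 of the 44 genes were under the minimum, and they ranged from 0 to 1.9 TPM. Among them, Col22a1, a collagen of the junction of muscle and tendon, was at 0, 0, 0, 0.3, 0.3, 1.2 and 1.3 TPM, highest in the 2 libraries with the most muscle marker RNA, and Col19a1 was at 0, 0.3, 0.2, 0.2, 0.3, 1.2 and 0.7 TPM. The values of a gene near 1 TPM rest on a table rounded to 0.1 TPM. Of the 2 collagens outside the named classes, Col28a1 was between 0.6 and 3.4 TPM and Col26a1 between 0.1 and 0.9. Col9a1, the third chain of type IX, was between 0 and 0.8 TPM.

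At day 14 of gefitinib, against the same vehicle library, 7 of 10 fibrillar genes and both type VIII genes were higher, and Col4a1, Col4a5, Col14a1, Col18a1 and Col6a6 were lower. Of the 33 genes 19 were higher, against 22.7% of all genes, and 5 lower, against 12.7%. The median was 1.18, and over all genes 0.03. Col1a1 and Col1a2 were 5.83-fold and 6.21-fold the vehicle TPM, Col12a1 6.10-fold and Col8a1 7.85-fold. Col4a5 was 6.97-fold, Col18a1 5.21-fold and Col14a1 4.64-fold lower. This pair and the day 3 pair share the vehicle library, and days in the animal and gefitinib cannot be told apart here. Fibroblast markers were at a median of 2.65, with 12 of 12 higher.

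Most collagens were lower at day 14 than at day 3 of gefitinib, when these 2 libraries were compared. Of the 33 genes 17 were lower, against 2.73% of all genes, and 1 was higher, against 4.93%. Col9a2, whose high value here is the one through which it met the minimum, is among the 17, and without it 16 of 32 were lower. The median was -1.0, and over all genes 0.11. With a pseudocount of 5 in place of 1, 12 of the 33 were lower, against 1.3% of all genes. Leaving out muscle markers and the 20 most abundant genes before scaling gave 15 lower, against 2.51%. Median-of-ratios rescaling gave 18, against 3.04%. The call of Col1a2, at -1.0005, was lost with the pseudocount of 5 and without the muscle markers and abundant genes. The lower genes included Col8a2 (6.28-fold), Col16a1 (3.42-fold), Col6a1 (3.20-fold), Col15a1 (3.04-fold), Col3a1 (2.33-fold) and Col4a1 (2.23-fold). Col12a1 was at 227 against 223 TPM, and Col8a1 differed by -0.68. Col11a2 was the gene called higher. Fibroblast marker levels were closer in this pair: their median was -0.16, with 2 of 12 lower, and their summed share was 0.188% in both libraries. The 2 lower genes were Lum (69.8 against 191.9 TPM) and Fap (4.3 against 13 TPM). The equal share includes Thy1, at 532.8 against 333.9 TPM. Lum, Fap and Thy1 were picked after their values were seen. Collagen TPM per fibroblast marker TPM was lower, at 6.32 against 12.7 for the fibrillar class and 0.576 against 1.54 for type VI.

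Over the 7 libraries, the ratio of summed fibrillar TPM to summed fibroblast marker TPM was 8.42, 12.7, 6.32, 9.07, 8.45, 8.46 and 7.3. It lay between 6.32 and 12.7, a narrower span than that of the fibrillar sums themselves, which ran from 2393.3 to 23870.6 TPM. Thy1 and Fbln2, picked after their values were seen, weighed differently in the marker sum. They were at 240.7 and 326.8 of 969.8 TPM in the day 21 vehicle library. With the combination they were at 189.2 and 120 of 1261.2 TPM. The ratio was not computed without them. The ratio of type IV TPM to all 12 fibroblast markers was 3.68, 0.555, 0.271, 1.22, 1.09, 0.263 and 0.216, and to the endothelial markers 5.26, 1.85, 1.08, 2.6, 2.74, 0.946 and 0.984. Type IV was highest against either of these 2 lists in the day 3 vehicle library, but not against the epithelial markers. In that library type IV summed to 1047.5 TPM and the epithelial markers to 3580.2 TPM. With 4H2 the sums were 281.9 and 47.2 TPM, in the same order.

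In the library taken 7 days after gefitinib ended, against day 14 of gefitinib, 3 of 5 type IV genes were higher and the fibrillar genes lay within 2-fold. In all, 5 of the 33 genes were higher, against 7.62% of all genes, and none was lower, against 7.89%. The median was -0.10, and over all genes -0.01. The higher genes were Col4a1 (2.57-fold), Col4a2 (2.14-fold), Col4a5 (3.32-fold), Col18a1 (2.68-fold) and the low Col6a6. All 10 fibrillar genes differed by between -0.59 and 0.33 on the log2 scale. Epithelial markers were higher in the same pair (10 of 10, median 1.71) and fibroblast markers lower (6 of 12, median -1.01), while endothelial markers were at 0.06. Their part in the type IV difference was not tested, and the end of gefitinib and 7 more days cannot be told apart.

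DC101, against vehicle at day 21, came with lower Col4a3, Col4a4, Col7a1, Col8a1 and Col12a1 and with higher Col14a1. These 5 lower genes compare with 1.11% of all genes called lower, and the 1 higher with 3.12%. The median over the 33 genes was -0.38, and over all genes -0.05. Col12a1 was at 91.1 against 258.2 TPM, a 2.83-fold ratio, and Col8a1 at 45 against 103.9, 2.31-fold. Col4a3 was at 2.9 against 11.8 TPM and Col4a4 at 2.8 against 9.1. Col14a1 was at 125.2 against 59.7 TPM, 2.10-fold higher. None of the 10 fibrillar genes differed by 2-fold, and 9 of them lay below vehicle. Col4a1 and Col4a2, the type IV chains of vessels among other tissues, differed by -0.28 and -0.38, beside an endothelial marker median of -0.43. The calls of Col4a4 and Col7a1 were lost with a pseudocount of 5. In the same pair, muscle markers were at a median of 2.61, fibroblast markers at 0.08, and epithelial markers at -0.54; alveolar type 1 markers were at -0.52. Pericyte and smooth muscle markers were at -0.51, with 3 of 9 lower, and adipocyte markers at 1.21, with 7 of 8 higher. Their part in the collagen differences was not tested.

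With 4H2, against the same vehicle library, all 5 compared type IV genes were lower and the fibrillar genes lay within 2-fold. Of the 33 genes 8 were lower, against 20% of all genes, and none was higher, against 10.9%. The medians were -0.25 for the 33 and -0.21 for all genes. After median-of-ratios rescaling 7 of the 33 were lower and none higher, with a median of -0.07, beside 15.6% and 15% of all genes and a median of 0.02. Col4a1 was 4.57-fold and Col4a2 3.58-fold lower. Col4a5 was at 1 against 20.9 TPM, a log2 difference of -3.45, and Col4a3 was at 0.6 against 11.8 TPM. Col18a1 was 3.81-fold and Col12a1 6.74-fold lower. Col8a1 differed by -1.21 on the log2 scale, and by -0.96 after the rescaling. Col1a1, Col1a2 and Col3a1 summed to 8554.5 against 8067.9 TPM, while epithelial markers were at 0.00472% against 0.737% of all TPM and muscle markers at 9.15% against 0.342%. Muscle and fat cells also make type IV collagen, and adipocyte markers were at 0.0715% against 0.0119%. Their part in these levels was not tested.

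The combination library, against vehicle, had all 5 compared type IV genes lower. In all, 9 of the 33 genes were lower, against 17.0% of all genes, and none was higher, against 11.7%. The medians were -0.47 and -0.17. After median-of-ratios rescaling 9 of the 33 were lower and 1 higher, with a median of -0.23, beside 12.6% and 15.2% of all genes and a median of 0.05. Col12a1 was 17.0-fold lower, at 15.2 TPM, Col8a1 5.87-fold and Col8a2 3.09-fold lower. In the same pair, epithelial markers were at a median of -4.05, with 10 of 10 lower, and muscle markers at 4.86, with 14 of 14 higher. Fibroblast markers were at 1.14, with 7 of 12 higher and 1 lower. Endothelial markers were at -0.40, with 4 of 9 lower, and adipocyte markers at 2.92, with 8 of 8 higher. The part of these markers in the collagen differences was not tested. The 3 antibody comparisons share their vehicle library, so their values stand side by side and no overlap was read from them.

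Against 4H2 alone, the combination had 3 of the 33 genes lower, against 0.464% of all genes, and none higher, against 4.94%. The medians were -0.10 and 0.06. The 3 were Col12a1 (15.2 against 38.3 TPM), Col8a1 (17.7 against 44.2) and Col8a2 (9.2 against 25.2), that is 2.52-fold, 2.50-fold and 2.74-fold. Muscle markers were nearly equal in this pair, at 9.06% and 9.15% of all TPM, and endothelial markers at 0.0277% and 0.0298%, while fibroblast markers were at 0.126% and 0.107% and epithelial markers at 0.0373% and 0.00472%. Schwann cell markers summed to 127.5 against 51.4 TPM and basal keratinocyte markers to 60.9 against 6.8 TPM. The part of these markers in the collagen differences was not tested. The fibrillar sum was at 9206.3 against 9085.3 TPM. Leaving out muscle markers and the 20 most abundant genes before scaling gave 1 higher gene, Col4a5, beside the 3 lower.

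**Figure D4:**
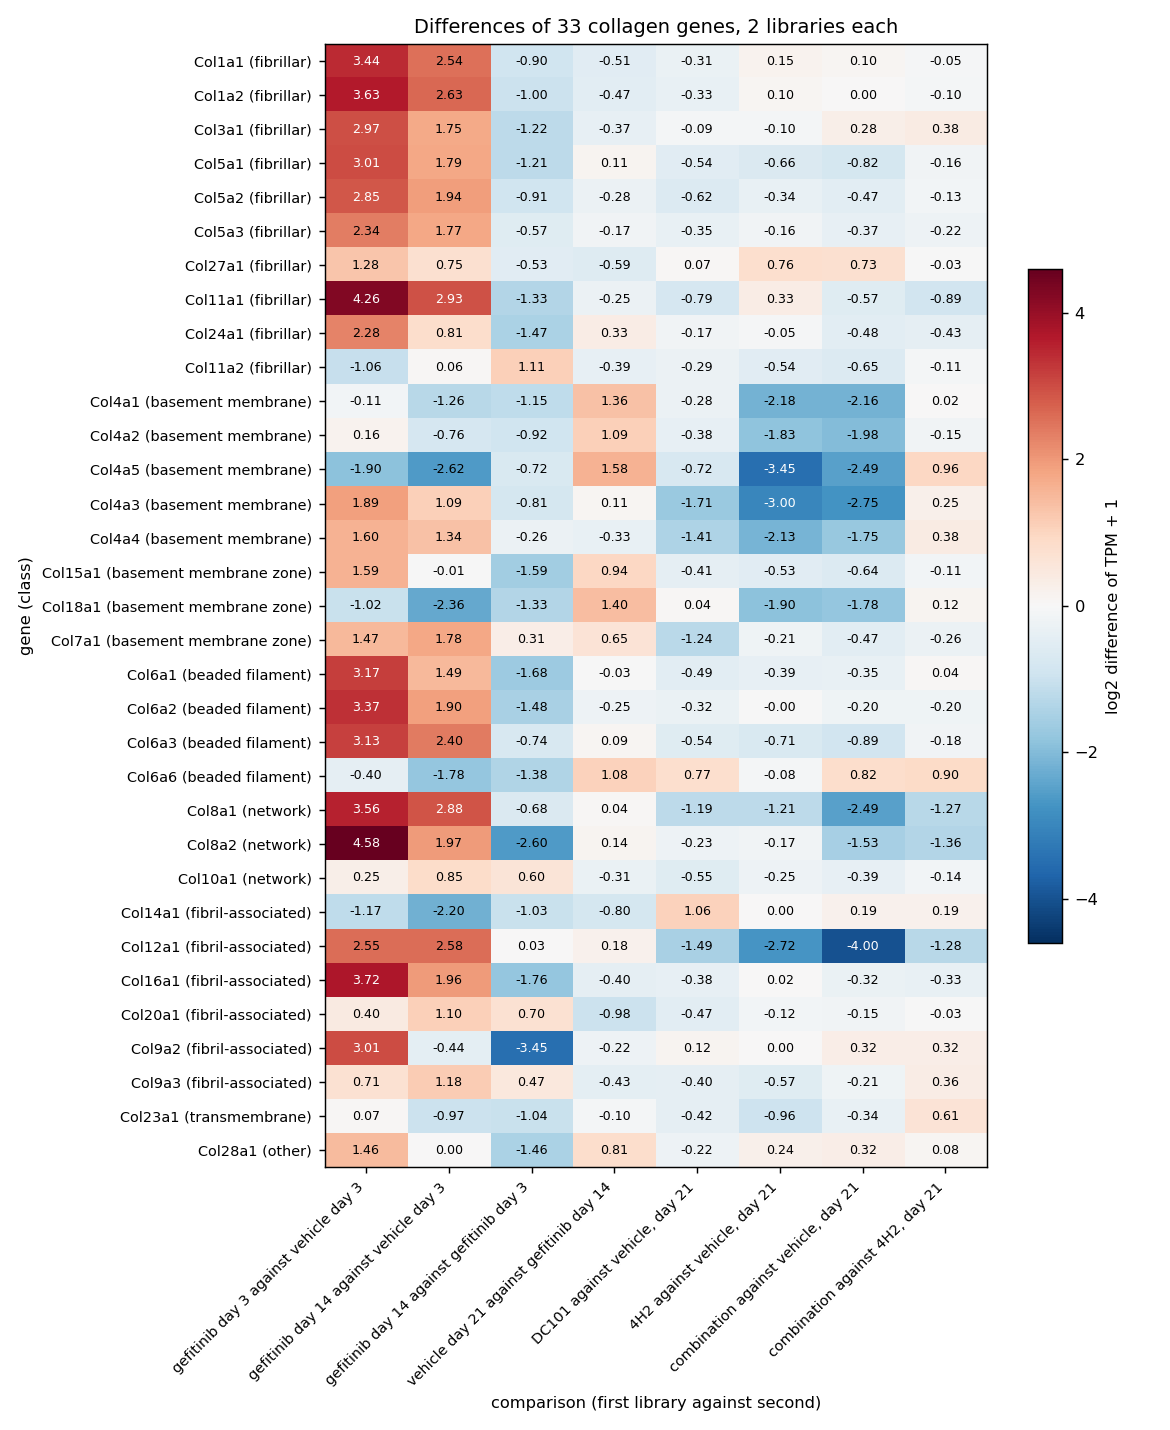
Log2 difference of TPM plus 1 for the 33 compared collagen genes (rows, by class) in 8 pairs of libraries (columns), first library against second; red is higher and blue lower in the first. Col8a2 has the highest value, 4.58 at day 3 of gefitinib, and Col12a1 the lowest, -4.0 for the combination against vehicle.

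Some pairs of chains that assemble together kept closer ratios of TPM across the libraries than others. Col1a1 to Col1a2, which join in type I collagen, stood at 1.79, 1.57, 1.68, 1.64, 1.67, 1.7 and 1.76, while each gene alone ranged over more than 10-fold. Col4a1 to Col4a2 stood between 1.03 and 1.56, and Col6a1 to Col6a2 between 1.06 and 1.59. Col5a1 to Col5a2 stood between 1.52 and 2.12. Col4a3 to Col4a4, partners in the alveolar type IV network, spread further, at 1.15, 1.39, 0.932, 1.3, 1.04, 0.462 and 0.45, with both genes at or under 2 TPM in the last 2 libraries. Col6a3 to Col6a1 was 0.344 and 0.340 at day 3 and between 0.487 and 0.711 later, and Col8a1 to Col8a2 was between 1.01 and 3.94. Of chains in different types, Col12a1 to Col1a1 was 0.0394, 0.0217, 0.0413, 0.0667, 0.0292, 0.0089 and 0.0037, lowest in the combination library. Col3a1 to Col1a1 was 0.748 in the day 3 vehicle library and between 0.397 and 0.550 in the others.

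**Figure D5:**
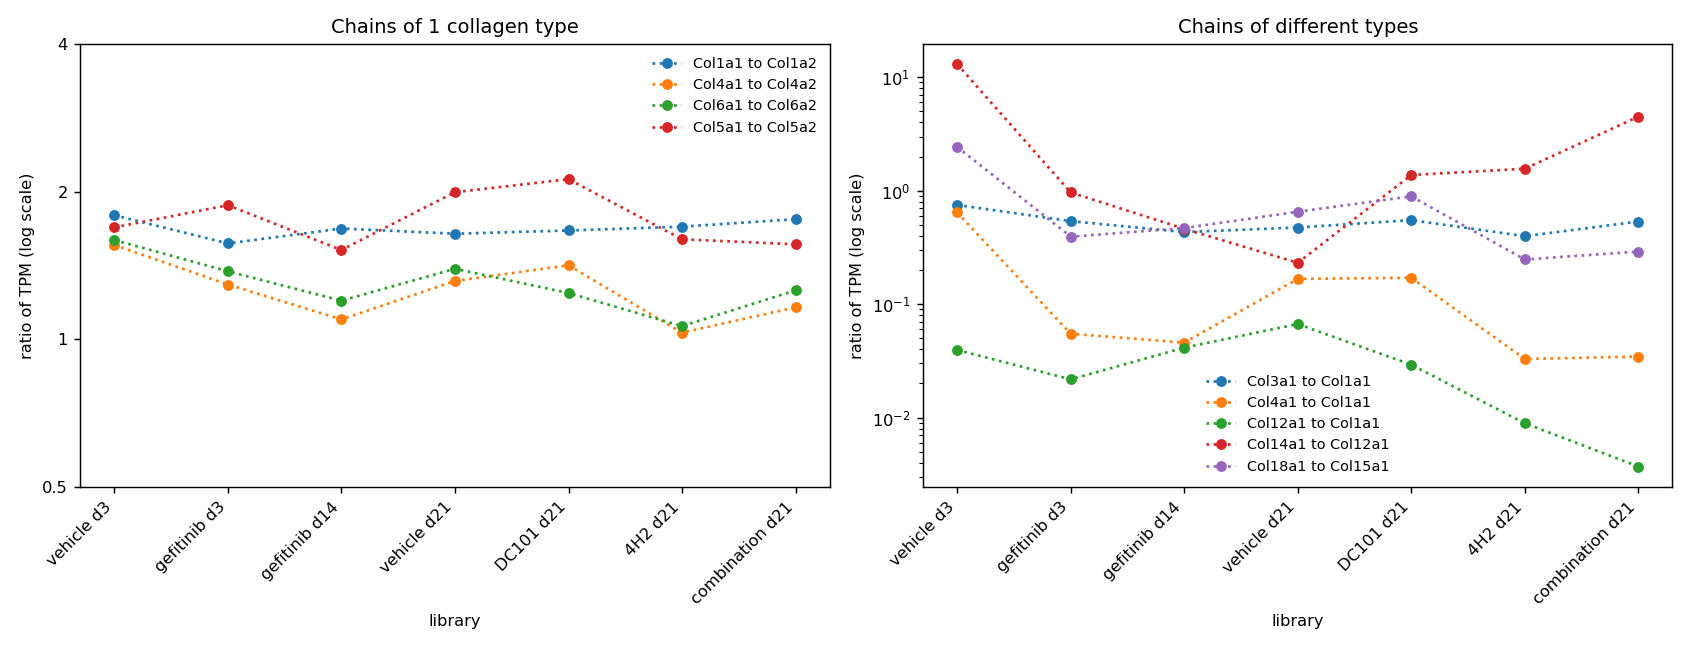
Ratio of TPM (log axis) between pairs of collagen genes in each library, for chains of 1 collagen type on the left and of different types on the right; points are single libraries. Col1a1 to Col1a2 stays between 1.57 and 1.79, whereas Col14a1 to Col12a1 runs from 0.231 to 13.

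Genes that modify collagen in the endoplasmic reticulum did not all follow the fibrillar genes. Of 19 compared folding and modification genes 6 were higher and 1 lower at day 3 of gefitinib (median 0.54), where 20.8% and 14.4% of all genes were, and with 4H2 against vehicle 6 were lower and 1 higher (median -0.55), where 20% and 10.9% of all genes were. Serpinh1, the collagen chaperone HSP47, was at 864.1, 1277.7, 498.5, 768.3, 651.2, 242.5 and 232.7 TPM. P4ha1, a prolyl hydroxylase subunit needed for a stable helix, was at 77.5, 81.2, 44.8, 41.1, 40.9, 40.5 and 41.2 TPM. Both thus had a smaller day 3 difference than Col1a1. P4ha3, another such subunit, was at 11.5, 110.8, 49.3, 38.9, 27.7, 26.2 and 16.4 TPM, and the proline hydroxylase gene P3h3 was at 9.6, 76.8, 28.2, 22.6, 16.5, 22.1 and 20.4 TPM. Plod1, a lysyl hydroxylase, was at 38.2, 156.8, 112.6, 63.3, 61.6, 73.4 and 71.4 TPM, and Plod2, whose product makes the stiff crosslinks of scars, at 47, 62.6, 15.8, 28.4, 32.5, 22.5 and 7.9 TPM. Lower than in vehicle with 4H2 were Fkbp10 (38.2 against 209.7 TPM) and P3h4 (8.3 against 57.5), whose products support lysine hydroxylation of collagen, whereas Tmem38b, which encodes an ion channel of the reticulum membrane, was at 80.2 against 12.8. Higher and lower genes of this list numbered 4 and 2 for day 14 gefitinib against vehicle, 0 and 5 for day 14 against day 3 of gefitinib, 1 and 0 for day 21 vehicle against day 14 gefitinib, 1 and 0 for DC101 against vehicle, 1 and 8 for the combination against vehicle, and 0 and 1 for the combination against 4H2. In the same 6 pairs and order, the shares of all genes called higher and lower were 22.7% and 12.7%, 4.93% and 2.73%, 7.62% and 7.89%, 3.12% and 1.11%, 11.7% and 17.0%, and 4.94% and 0.464%, which also stand beside the counts of the next 3 gene lists.

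Genes for propeptide cleavage and crosslinking were mostly higher at day 3 of gefitinib, with 9 of 12 higher, against 20.8% of all genes, and 1 lower, against 14.4% (median 1.94). Pcolce, which speeds removal of the C-terminal propeptide, was at 73.5, 545.4, 176.2, 180.2, 144.2, 194.6 and 181.7 TPM. Adamts2, which removes the N-terminal propeptide, was at 17.2, 147.7, 96.3, 59.1, 67.9, 73.9 and 68.7 TPM, and Bmp1, the C-terminal protease, at 64.2, 131.6, 87, 94.1, 56.8, 37.9 and 46.9 TPM. The amine oxidases that crosslink fibers had their highest levels under gefitinib: Lox was at 53.9, 199, 100.6, 89.3, 51.4, 44.6 and 41.4 TPM and Loxl1 at 41.4, 283, 281.9, 131, 88.3, 98.9 and 81.6 TPM. Loxl2 was at 15.8, 67.2, 87.7, 65.6, 31.9, 19.9 and 24.1 TPM. Adamts3, chosen after its values were seen, was the lower gene at day 3, at 1.7 against 6.4 TPM. In the other pairs, higher and lower genes numbered 7 and 1 for day 14 gefitinib against vehicle, 0 and 1 for day 14 against day 3 of gefitinib, 1 and 2 for day 21 vehicle against day 14 gefitinib, 0 and 1 for DC101 against vehicle, 1 and 3 for 4H2 against vehicle, 1 and 4 for the combination against vehicle, and 1 and 0 for the combination against 4H2. With 4H2 20% and with the combination 17.0% of all genes were lower.

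Genes of collagen breakdown and uptake were higher in all 6 compared members at day 3 and at day 14 of gefitinib, with medians of 3.01 and 2.77, against 20.8% and 22.7% of all genes called higher. Ctsk, the collagen-cutting cathepsin K, was at 9.3, 170.8, 248.8, 59.2, 67.4, 103.4 and 104.9 TPM. Mmp14, a membrane-bound collagenase, was at 104.6, 777.9, 686.1, 401.8, 308.2, 452.9 and 317.9 TPM, and Mmp2, a gelatinase that it activates, at 50.6, 549.3, 411.2, 180.1, 149.4, 169.9 and 206.8 TPM. Mrc2, an uptake receptor for cut collagen, was at 14.1, 104.3, 74.8, 56.2, 37.8, 55.9 and 43.9 TPM. At day 14 against day 3 of gefitinib, when 17 collagens were lower, this list had 1 of 6 genes lower (median -0.30). Ctsk was at 248.8 against 170.8 TPM and Mmp13 at 21.3 against 11.8. Mmp14 was at 686.1 against 777.9 TPM, Mmp2 at 411.2 against 549.3, Mrc2 at 74.8 against 104.3 and Mmp9, the lower gene, at 13.8 against 45.5. The part of these genes in the collagen difference was not tested. The counts of higher and lower genes elsewhere were 1 and 2 for day 21 vehicle against day 14 gefitinib, 0 and 0 for DC101 against vehicle, 0 and 2 for 4H2 against vehicle, 0 and 2 for the combination against vehicle, and 0 and 0 for the combination against 4H2. Of all genes, 20% were lower with 4H2 and 17.0% with the combination.

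Collagen receptors did not share 1 direction. Of 10 compared receptors 2 were higher and 4 lower at day 3 of gefitinib (median -0.47), where 20.8% and 14.4% of all genes were. Itga11, the fibroblast integrin chain for fibrillar collagen, was at 2.9, 42.4, 28.8, 11.8, 8.2, 15.6 and 14.1 TPM, and Lair1, an inhibitory collagen receptor of leukocytes, at 1.8, 32.3, 40.9, 21.1, 15.8, 25.4 and 23.7 TPM. Both were lowest in the day 3 vehicle library. Itga2, an integrin chain of epithelium and platelets, was at 19.8, 3, 4.7, 60.4, 41.6, 1.1 and 5.6 TPM, and Ddr1, the epithelial discoidin receptor kinase, at 97.7, 26, 35.8, 106.2, 80.1, 11.6 and 18.3 TPM. These 2 were lowest in the 4H2 library. Ddr2, its mesenchymal relative, was at 30.7, 29.7, 39.5, 40.8, 42.3, 35.4 and 65.1 TPM, with the highest value in the combination library, and Itga1 was at 43.4, 20.5, 30.5, 24.9, 26.1, 12.9 and 13.5 TPM. Beyond day 3, receptors called higher and lower numbered 2 and 2 for day 14 gefitinib against vehicle, 1 and 0 for day 14 against day 3 of gefitinib, 3 and 1 for day 21 vehicle against day 14 gefitinib, 0 and 0 for DC101 against vehicle, 0 and 4 for 4H2 against vehicle, 0 and 4 for the combination against vehicle, and 1 and 0 for the combination against 4H2. The shares of all genes called lower were 20% with 4H2 and 17.0% with the combination.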

How the data were processed

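RNA of 7 tumor libraries was measured after ribosomal RNA depletion with directional library preparation, per the labels' protocols. The deposited values are TPM, rounded by the authors to 1 decimal, and each library sums to about 1000000 over 21892 symbols. The submitters' processing notes name GRCm38.p6 as build. The aligner, counter and annotation release were not given in the sources used here, and since TPM keeps no depth, the depth is unknown and no counting interval is given. All 44 members were kept; 33 with a mean of at least 1 TPM were compared in 8 pairs as log2 of TPM plus 1, with calls at 2-fold. No test was possible with 1 library per group. Positions and promoters come from RefSeq on the same build. Genes with at least 10 TPM in any library are given in every library; from each pathway list the 3 highest and 2 lowest per pair could be named, with a fixed set including Serpinh1, P4ha1, Lox and Ddr1. Egfr and Nkx2-1, the collagen genes under 10 TPM given by library and the choice of promoters were made after values were seen. The members and all 15 gene lists were chosen with earlier results of these data known. Alternatives were pseudocounts of 0.1 and 5, other minimum means, 2 rescalings and, chosen after seeing the data, leaving out Col9a2. Python 3.11.15 and pandas 2.3.3 were used, and the calls were checked on simulated data.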

Additional observations from a re-analysis of the deposited data

How the results depend on the processing

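Of 128 counts of called collagen genes under the alternatives, 115 lay within 1.5 times the reported count. Of 64 medians 15 moved by over 1.5 times and none changed sign: with no minimum 1.89 at day 3 of gefitinib became 1.20, with a pseudocount of 5 1.18 at day 14 became 0.74, and the others were in the pairs of day 21. With a pseudocount of 5, lower genes numbered 2 instead of 4 at day 3 of gefitinib and 3 instead of 5 with DC101, and the 1 higher gene at day 14 against day 3 became 0, as it did with a mean of at least 5 TPM, where 27 genes were compared. With a pseudocount of 0.1, 1 gene instead of 0 was lower after gefitinib ended, and 2 and 3 instead of 0 were higher for the combination against vehicle and against 4H2. Median-of-ratios rescaling gave 2 lower genes at day 3 and 1 higher gene for the combination against vehicle, so that 10% instead of 0% of called genes were higher. Rescaling without muscle markers and the 20 most abundant genes gave 1 lower gene after gefitinib ended (83.3% instead of 100% of calls higher) and 1 higher gene for the combination against 4H2 (25.0% instead of 0%). Without a minimum, 2 genes instead of 1 were higher with DC101 and 1 instead of 0 with the combination. Median-of-ratios rescaling moved the median of all genes from -0.21 to 0.02 with 4H2 and from -0.17 to 0.05 with the combination. The log2 ratio of summed type IV TPM at day 3 of gefitinib was -0.01, and 0.0753 with collagens VII, XV and XVIII added. The cause of these shifts was not tested. No paired analysis was possible because each group has 1 library and the result comes from no test. No library could be left out because each comparison holds 1 per group.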
